A study of Mus musculus with 12 samples.

Results

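Mouse bone marrow cells that had received 10 µM indole-3-propionic acid (IPA) were compared with cells that had received vehicle, in 8 of the 12 RNA-seq libraries of the series, 4 per group. The comparison covered every gene with more than 0.5 CPM (a gene's counts scaled to the total of its library) in a minimum of 2 libraries of the 12, which was 14894 of the 54532 genes listed. All cells came from wild-type (WT) C57BL/6 mice and grew in medium with GM-CSF and IL-6 until day 5. The vehicle was 0.1% DMSO, and both groups were dosed again at the change of medium, on day 3 by the sample labels. The other 4 libraries received 50 µM IPA and are cited only for genes named here. No source ties a library to its own animal or culture, so p-values measure the spread between these libraries, which may be technical. No sort of the cells is given, and in such mixed samples fewer cells of a type and less RNA per cell cannot be told apart.

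IPA is made from tryptophan by gut bacteria and reaches the blood of the host. GM-CSF and IL-6 drive bone marrow progenitors into monocytes, macrophages, granulocytes and dendritic cells, and such cultures serve as a model of immature and immunosuppressive myeloid cells. Macrophages that meet IL-4 or IL-13 switch on a set of genes known as the alternative activation program, which includes *Retnla*, *Mrc1* and *Chil3*. Stefins are small cytosolic inhibitors of cysteine proteases, the cathepsins among them.

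The cells carried myeloid transcripts in all 8 libraries, with 121961 to 196334 raw counts of the lysozyme gene *Lyz2*, 9210 to 13902 of the lineage factor *Spi1*, 4270 to 6389 of the macrophage receptor gene *Adgre1* and 912 to 1597 of the neutrophil gene *Ly6g*. Other lineages were present too, since *Epx*, an eosinophil peroxidase gene, had 7904 to 14038 counts and *Mcpt8*, a basophil protease gene, had 1956 to 2701. T cell genes were low, with 0 to 12 counts of *Cd3e*, 0 to 18 of *Trac*, 8 to 37 of *Cd8a* and 1 to 41 of *Cd3d*, and erythroid *Hbb-bs* had 0 to 2. Totals ran from 22417710 to 26442653 reads with vehicle and from 20848854 to 28038612 at 10 µM. The slope of each library's log2 CPM deviations on log2 exon length ran from -0.044 to 0.035 with vehicle and from -0.055 to 0.030 at 10 µM, and the difference did not pass (exact permutation test, two-sided, p = 0.600). The lowest p that 4 libraries against 4 allow in such a test is 0.0286.

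By edgeR's quasi-likelihood test, 61 genes passed an adjusted p of 0.05 and are referred to as called, which was 0.41% of all genes tested. Of these, 49 rose (0.329% of genes tested) and 12 fell (0.0806%), and 1308 genes had an unadjusted p under 0.05. DESeq2, the tool of the study, was also run here and called 250 genes, the 61 among them. The count that the study reports from its own DESeq2 run is smaller. A gene given here as not called missed the threshold of edgeR's test. The rises were spread over a wide range of sizes: 7 had a log2 fold change of at least 1, 29 lay between 0.5 and 1, and 13 lay below 0.5. Among the falls, *Stfa1* and *Gm23935* passed a log2 fold change of -1. Protein-coding genes made up 57 of the 61. The called genes were well expressed, with a median of 67.6 CPM over the 8 libraries against 18.3 CPM for all genes tested. Across all tested genes the median log2 fold change was -0.01, and 7173 of the 14894 values were positive. In 531 genes (3.57%) all 4 libraries at 10 µM lay above all 4 vehicle libraries, and in 382 genes (2.56%) all lay below.

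**Figure D1:**
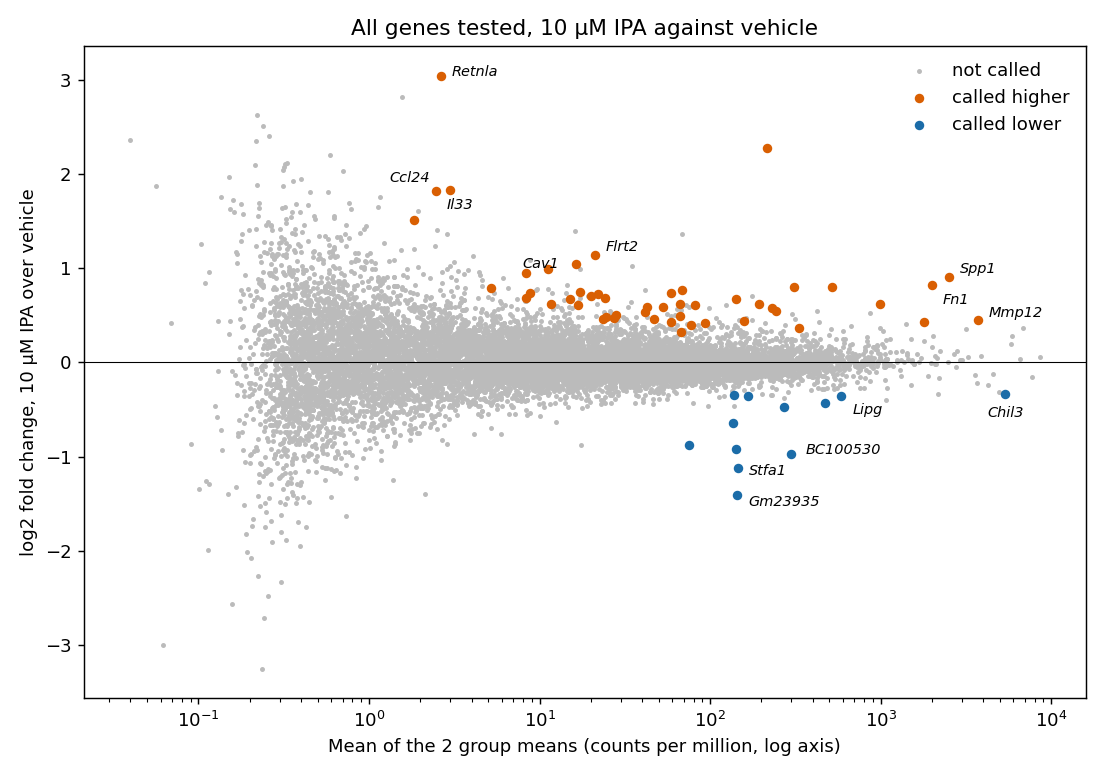
Each point is 1 of the 14894 genes tested, placed by the mean of the vehicle and 10 µM means in CPM (log axis, not divided by gene length) and by its log2 fold change. The 49 genes called higher reach a log2 fold change of 3.04 (*Retnla*), the 12 called lower reach -1.41 (*Gm23935*), and the gray cloud widens to the left where levels are low.

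The number of calls rested on single libraries: 4 genes passed when replicate 2 at 10 µM was dropped and 122 when replicate 4 with vehicle was dropped. With 1 library left out at a time, 24, 4, 12 and 25 of the 61 calls were kept without replicates 1, 2, 3 and 4 of the 10 µM group, and 10, 20, 29 and 61 without replicates 1, 2, 3 and 4 of the vehicle group. *Retnla*, *Cav1*, *Stfa1* and *BC100530* were called in all 8 of these fits. *Ccl24*, *Stfa2l1* and *Stfa3* were called in 7, each lost only without replicate 2 of the 10 µM group, with adjusted p values of 0.0562, 0.0596 and 0.0555. At the other end, 36 of the 61 passed in at most 2 of the 8 fits. For 57 of the 61, leaving out at least 1 library ended the call.

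Genes of alternative activation held the largest rises. *Retnla* encodes RELM-alpha, a small secreted protein of alternatively activated macrophages and eosinophils, and lies at chr16:48842551-48844461 on the plus strand of GRCm38. With vehicle its level was 0.492, 0.743, 0.717 and 0.318 CPM in replicates 1 to 4, and at 10 µM it was 5.11, 6.49, 4.10 and 3.11 CPM. The groups were far apart, and the fitted level was 8.24-fold higher (log2 fold change 3.04, standard error 0.32, adjusted p = 0.00399). The raw counts behind these values were 8 to 20 reads per vehicle library and 68 to 141 reads per library at 10 µM. A stretch of the RefSeq promoter of *Retnla* (chr16:48842409-48842528, GRCm38.p6, plus strand) is shown because it holds a match to a STAT6-type motif, TTC and GAA with 4 bases between them, given in capitals:
Retnla: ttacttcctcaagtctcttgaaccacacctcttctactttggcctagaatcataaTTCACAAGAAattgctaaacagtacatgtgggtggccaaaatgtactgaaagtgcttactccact
The match lies at chr16:48842464-48842473. RefSeq and GENCODE place the start of *Retnla* at different bases, and the match begins at base -145 relative to the RefSeq start (48842609) and 87 bases before the GENCODE start (48842551).

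*Ccl24* encodes eotaxin-2, a chemokine that draws eosinophils. Its level was 1.55, 1.23, 1.17 and 1.31 CPM with vehicle and 5.61, 5.62, 4.03 and 3.53 CPM at 10 µM, a fitted 3.56-fold rise (log2 fold change 1.83, standard error 0.22, adjusted p = 0.00980). All libraries at 10 µM lay above the vehicle libraries, and the vehicle libraries lay close together.

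The lectin receptors of the same program rose by less. *Mrc1*, the mannose receptor CD206, was at 136, 133, 189 and 154 CPM with vehicle and at 212, 232, 238 and 256 CPM at 10 µM (log2 fold change 0.62, standard error 0.11, adjusted p = 0.0375). The neighboring paralogs *Clec10a* (0.48, adjusted p = 0.0394) and *Mgl2* (0.36, adjusted p = 0.0385), galactose-binding lectins of macrophages and dendritic cells, also rose. *Chil3*, the chitinase-like protein Ym1, went the other way: it was at 5918, 5809, 5805 and 6354 CPM with vehicle and at 5085, 4647, 4676 and 4585 CPM at 10 µM, so that every library at 10 µM was lower (log2 fold change -0.33, standard error 0.06, adjusted p = 0.0394). *Chil3* is also made by immature neutrophils. Of the 25 tested members of the list, 6 rose, 1 fell and 18 were not called, and the median log2 fold change was 0.19 against -0.01 for all genes. *Il4ra*, the receptor chain through which IL-4 and IL-13 act, had 291 to 299.7 CPM with vehicle and 317 to 327 CPM at 10 µM, a separation without a call (log2 fold change 0.13, adjusted p = 0.441). *Il33*, a cytokine of the IL-1 family that acts on type 2 immune cells, was at 1.17, 0.854, 0.807 and 1.51 CPM with vehicle and at 3.12, 3.92, 5.27 and 3.07 CPM at 10 µM. Its level was low in both groups, at 18 to 38 reads and 67 to 140 reads per library, and the difference passed the test (log2 fold change 1.82, standard error 0.27, adjusted p = 0.0213), although only 3 of the 8 fits with 1 library left out kept it. *Il4* and *Il13* themselves were near the limit of detection, with 6 to 25 and 3 to 28 raw counts over the 8 libraries.

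**Figure D2:**
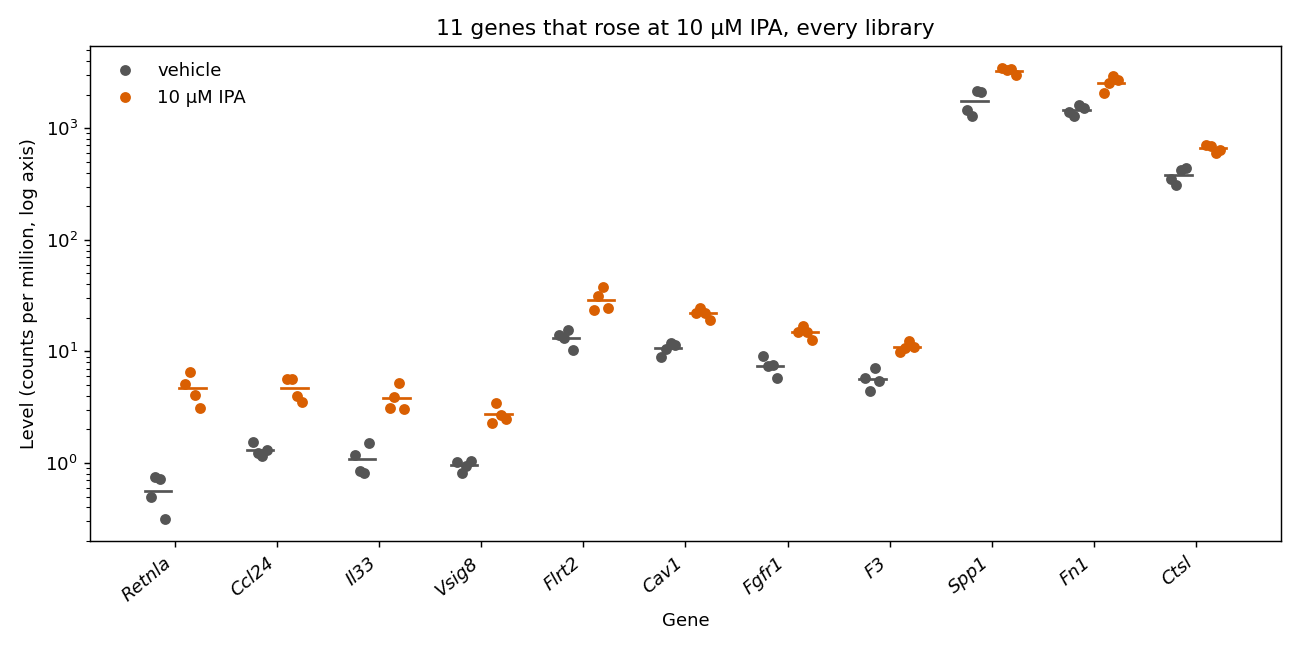
Level in CPM (log axis) of 11 called genes with large log2 fold changes; points are the 4 vehicle libraries and the 4 libraries at 10 µM IPA, and bars are group means. No gene shows overlap between the groups, and *Retnla* has the lowest levels with vehicle, 0.492, 0.743, 0.717 and 0.318 CPM. Levels are not divided by gene length, so heights are not comparable between genes.

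Genes of the matrix and of attachment to it made up a further group. *Spp1* encodes osteopontin, a secreted matrix protein and cytokine. It was at 1445, 1282, 2156 and 2118 CPM with vehicle, where replicates 1 and 2 were the lower pair, and at 3430, 3339, 3362 and 3011 CPM at 10 µM, above all of them (log2 fold change 0.91, standard error 0.15, adjusted p = 0.0311). *Fn1*, fibronectin, was at 1408, 1293, 1600 and 1504 CPM with vehicle and at 2049, 2521, 2957 and 2688 CPM at 10 µM (log2 fold change 0.82, standard error 0.11, adjusted p = 0.0102). Replicate 1 was the lowest of the treated libraries and still exceeded the highest vehicle library. *Flrt2*, a membrane protein with leucine-rich repeats that binds Unc5 receptors and latrophilins, was at 13.96, 13.1, 15.6 and 10.3 CPM with vehicle and at 23.4, 31.3, 37.7 and 24.4 CPM at 10 µM (log2 fold change 1.14, standard error 0.17, adjusted p = 0.0172). The heparan sulfate proteoglycans *Sdc1* (log2 fold change 0.59, adjusted p = 0.0164) and *Sdc3* (0.55, adjusted p = 0.0277) rose as well. With these 5, the list of matrix proteins and their receptors had 5 rises among 17 tested members, no fall, and a median log2 fold change of 0.28; 8 of its members separated the groups upward. The 3 that separated without a call were *Ecm1* (0.30, adjusted p = 0.132), *Flrt3* (0.24, adjusted p = 0.391) and *Tgfbi* (0.16, adjusted p = 0.414). *Lgals3* and *Thbs1*, abundant members, were not called, at 0.28 and -0.13. A short annotated transcript, *Gm42793*, lies inside *Spp1* on the same strand, and it had 11 to 47 reads per library, few beside those of *Spp1*.

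Among the proteases that cut matrix, *Mmp12*, the macrophage metalloelastase, rose from 3151 ± 123 CPM (SD, n = 4) to 4295 ± 419 CPM (SD, n = 4) at 10 µM, with a log2 fold change of 0.45, adjusted p = 0.0311. It was the called member of 20 tested metalloproteinases and inhibitors, of which 8 separated the groups upward and none downward (median log2 fold change 0.14). The collagenase gene *Mmp13* had 23.9 to 58.2 CPM with vehicle and 83.8 to 124 CPM at 10 µM and missed the threshold (log2 fold change 1.36, adjusted p = 0.0510). The inhibitor gene *Timp1* (0.70, adjusted p = 0.0780) and the membrane protease gene *Adam8* (0.33, adjusted p = 0.0979) also separated without a call. *Mmp9*, which encodes a gelatinase of neutrophil granules, had a log2 fold change of 0.06, adjusted p = 0.892.

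Other large rises concerned growth factor signaling, clotting and membrane structure. *Cav1*, caveolin-1, the coat protein of caveolae, was at 8.89, 10.5, 11.9 and 11.5 CPM with vehicle and at 22.1, 24.7, 22.3 and 19.01 CPM at 10 µM. The libraries within each group lay close together, the fitted level was 2.06-fold higher (log2 fold change 1.04, standard error 0.12, adjusted p = 0.00574), and the call held in all 8 fits with 1 library left out. *Fgfr1*, a receptor for fibroblast growth factors, was at 9.08, 7.43, 7.62 and 5.80 CPM with vehicle and at 14.8, 17.04, 15.1 and 12.7 CPM at 10 µM (log2 fold change 0.99, standard error 0.14, adjusted p = 0.0164). *F3* encodes tissue factor, the trigger of the clotting cascade. It was at 5.83, 4.42, 7.17 and 5.45 CPM with vehicle and at 9.96, 10.7, 12.3 and 11.04 CPM at 10 µM (log2 fold change 0.95, standard error 0.15, adjusted p = 0.0250). *Vsig8*, an immunoglobulin-domain membrane protein, was low throughout, at 1.02, 0.817, 0.941 and 1.03 CPM with vehicle and 2.28, 3.44, 2.71 and 2.47 CPM at 10 µM (log2 fold change 1.51, standard error 0.24, adjusted p = 0.0263). A transcript on the opposite strand, *4933439K11Rik*, overlaps *Vsig8* and had 30 to 47 reads per library, against 21 to 27 and 54 to 72 for *Vsig8*, so the value of *Vsig8* is uncertain if strand was not used in counting.

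Lysosomal proteases were represented by *Ctsl*, cathepsin L, a cysteine protease that stefins inhibit. It was at 349.9, 310.2, 421 and 438 CPM with vehicle and at 704, 697, 604 and 644 CPM at 10 µM, a fitted 1.74-fold rise without overlap (log2 fold change 0.80, standard error 0.10, adjusted p = 0.0102). *Ctsl* was the 1 called gene among 14 cathepsins tested, 11 of which had positive values (median log2 fold change 0.25). *Ctsk* (0.90, adjusted p = 0.294), *Ctsb* (0.41, adjusted p = 0.148), *Ctsd* (0.37, adjusted p = 0.150) and *Ctsa* (0.23, adjusted p = 0.217) separated the groups upward without a call. Of 38 further lysosomal hydrolases and membrane proteins none was called by edgeR's test (12 with an unadjusted p under 0.05, 2 called by DESeq2), 10 separated upward and *Arsb* (-0.27) downward, and the median was 0.12. The protease gene *Lgmn* (0.61, adjusted p = 0.0645) and *Psap*, the saposin precursor (0.36, adjusted p = 0.0761), came closest to the threshold. *Atp6v0d2*, a subunit of the proton pump found in macrophages and osteoclasts, was the 1 called gene of 19 pump subunits (0.77, adjusted p = 0.0163), and the widely used subunits *Atp6v1a* and *Atp6v0a1* had values of 0.02 and 0.03. With *Acp5*, the tartrate-resistant acid phosphatase (0.71, adjusted p = 0.0375), it was 1 of 2 called among 13 osteoclast genes, a list whose median was 0.06. *Ocstamp*, a fusion protein of osteoclasts, was not called (0.74, adjusted p = 0.0819), and the osteoclast factor *Nfatc1* stood at -0.05.

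Macrophage genes had mostly positive values. Of 27 tested, 7 were called, all upward, 17 separated the groups upward and none downward, and 25 had positive values, with a median log2 fold change of 0.42. DESeq2 called 15 of them. Besides *Flrt2* and *Mrc1*, the called members included the fatty acid receptor gene *Cd36* (0.68, adjusted p = 0.0450), the lipoprotein lipase gene *Lpl* (0.43, adjusted p = 0.0375), *Gpnmb*, a membrane glycoprotein of lipid-laden and lysosome-rich macrophages (0.61, adjusted p = 0.0385), and the complement gene *C1qb* (0.44, adjusted p = 0.0474). *C1qa* (0.42, adjusted p = 0.162) and *C1qc* (0.39, adjusted p = 0.124), which encode the other chains of the same C1q molecule, had values close to that of *C1qb* without a call. *Siglec1*, *Mfge8*, *Mertk*, *Maf* and *Trem2* were not called, with log2 fold changes of 0.96, 0.51, 0.47, 0.44 and 0.41. *Igf1*, which is not in the list, was not called either (1.40). *Csf1r*, the M-CSF receptor gene, had a log2 fold change of 0.09, adjusted p = 0.721, and *Cd68* had 0.30, adjusted p = 0.265. The calls of *Cd36* and *C1qb* were kept in 2 of the 8 fits with 1 library left out.

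**Figure D3:**
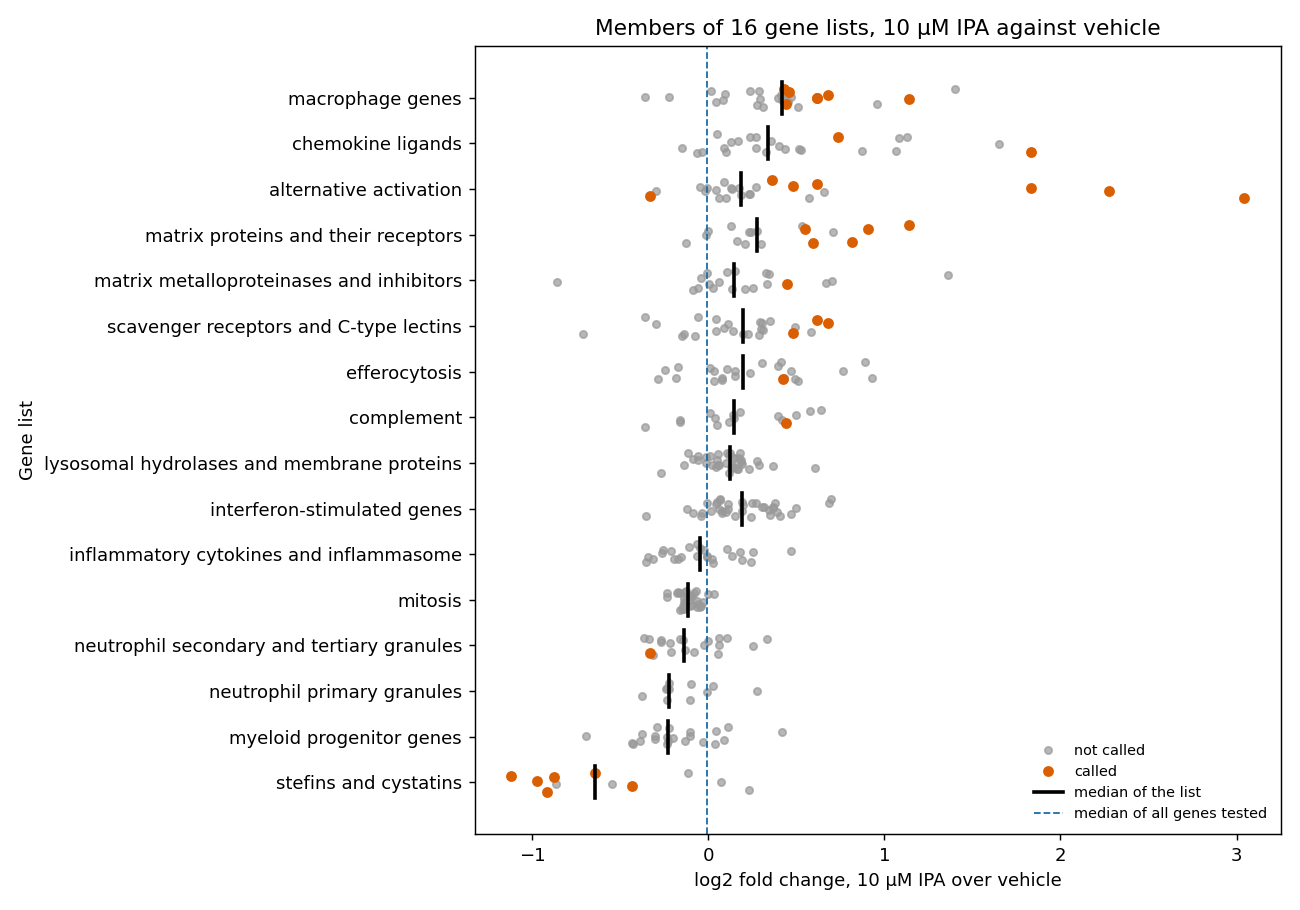
Log2 fold change of each tested member of 16 gene lists, with called genes in orange, the median of each list as a black bar and the median of all genes tested (-0.01) as a dashed line; points are spread vertically for legibility. Macrophage genes and chemokine ligands lie furthest right by their medians (0.42 and 0.34), and stefins and cystatins furthest left (-0.64).

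Receptors for uptake partly overlapped with these. Of 25 scavenger receptors and C-type lectins, *Cd36*, *Mrc1* and *Clec10a* rose, 10 separated the groups upward, and *Clec5a* (-0.08) separated downward (median 0.20). Over all genes tested, 3.57% separated upward and 2.56% downward. In the efferocytosis list, which covers genes for the uptake of dying cells, *Cd300ld*, a myeloid receptor of the CD300 family, was the called gene (0.43, adjusted p = 0.0375) of 24 tested; 7 separated upward and *Elmo1* (-0.18) downward. Of 16 complement genes, *C1qb* was called, and the anaphylatoxin receptor gene *C3ar1* (0.58, adjusted p = 0.0874) and the protease genes *C1s1* (0.64, adjusted p = 0.238) and *C1ra* (0.50, adjusted p = 0.107) separated without a call, while *C3* stood at -0.16. In the lipid handling list, besides *Cd36* and *Lpl*, 26 of 28 members were not called, and the median was 0.04. DESeq2 called 5 scavenger receptors and lectins, 5 efferocytosis genes, 5 complement genes and 6 genes of lipid handling. It also called 5 of the metalloproteinases and inhibitors and 4 of the cathepsins described above.

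Most chemokine ligands had positive values. *Ccl2*, the main ligand of the monocyte receptor CCR2, was at 38.02, 43.3, 52.2 and 43.5 CPM with vehicle and at 84.6, 78.8, 59.7 and 71.1 CPM at 10 µM (log2 fold change 0.73, standard error 0.12, adjusted p = 0.0277), a call kept in 3 of the 8 fits with 1 library left out. Together with *Ccl24* it was called, and 22 of 24 tested ligands were not; 8 separated the groups upward, none downward, and 21 had positive values (median 0.34), and DESeq2 called 8. *Ccl7*, which shares the receptor of *Ccl2*, had 4.05 to 7.93 CPM with vehicle and 8.84 to 14.6 CPM at 10 µM (log2 fold change 1.08, adjusted p = 0.0664). The epithelial and macrophage chemokine gene *Cxcl14* (1.65, adjusted p = 0.0898), *Ccl9* (0.53, adjusted p = 0.0638) and *Ccl3* (0.43, adjusted p = 0.0758) separated in the same way without a call. *Ccl17* and *Ccl22*, ligands that dendritic cells make, stood at 0.27 and 0.13. Among 17 receptors none was called by edgeR's test (2 with an unadjusted p under 0.05, 2 called by DESeq2), the median was -0.04, and *Ccr2* came closest (0.54, adjusted p = 0.0975).

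Several called rises fell into no single group. Cytokines of the TNF family were represented by *Tnfsf8*, the CD30 ligand (0.74, adjusted p = 0.0174), and *Tnfsf4*, the OX40 ligand (0.74, adjusted p = 0.0394). The arginine transporter gene *Slc7a2* was at 189, 185, 269 and 267 CPM with vehicle and at 327, 398, 469 and 390.4 CPM at 10 µM (log2 fold change 0.80, standard error 0.14, adjusted p = 0.0394). *Dhrs9* (0.59, adjusted p = 0.0164) and *Dhrs3* (0.51, adjusted p = 0.0315) encode dehydrogenases that act on retinoids. *Hmox1*, heme oxygenase-1, rose (0.58, adjusted p = 0.0460), while 20 of 21 NRF2 targets were not called and *Gsr*, glutathione reductase, had -0.27, adjusted p = 0.0878. Genes of the actin skeleton and of adhesion included *Fblim1* (0.68, adjusted p = 0.0102), *Evl* (0.53, adjusted p = 0.0130), *Eps8* (0.41, adjusted p = 0.0244), *Pls3* (0.46, adjusted p = 0.0498) and the protocadherin gene *Pcdh7* (0.61, adjusted p = 0.0394). Signaling genes included the adaptor gene *Blnk* (0.68, adjusted p = 0.0263), the kinase gene *Sgk1* (0.49, adjusted p = 0.0454), the phosphatase gene *Dusp3* (0.40, adjusted p = 0.0385), the potassium channel gene *Kcnn4* (0.61, adjusted p = 0.0367) and the ubiquitin ligase gene *Rnf128* (0.62, adjusted p = 0.0385).

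The remaining called rises were *Zranb3*, a DNA repair helicase (0.72, adjusted p = 0.0277), *Serpinb6a*, a protease inhibitor (0.47, adjusted p = 0.0377), *Ahcyl2* (0.33, adjusted p = 0.0394) and the noncoding genes *4930430E12Rik* (0.79, adjusted p = 0.0456), *E230016K23Rik* (0.68, adjusted p = 0.0385) and *AU022793* (0.62, adjusted p = 0.0339). *E230016K23Rik* lies opposite *Ccl6*, which had 62160 to 108934 reads per library, so its value is uncertain if strand was not used in counting. *4930430E12Rik* is annotated as antisense, and no overlapping gene was found for it. *Zranb3* had 383 to 476 reads per library with vehicle and 555 to 770 at 10 µM, and *Rpl28-ps1*, a pseudogene inside it on the opposite strand, had 112 to 329 reads, so the value of *Zranb3* is uncertain too. *Serpinb6a*, with 502 to 634 reads per vehicle library and 649 to 933 at 10 µM, overlaps *Nqo2* and *Ripk1* on the opposite strand. These had 803 to 1139 and 1878 to 2890 reads, so the value of *Serpinb6a* is uncertain if strand was not used in counting. Of this group of genes none kept its call in more than 2 of the 8 fits with 1 library left out.

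The falls were dominated by the stefin A genes, a cluster of close paralogs on chromosome 16. *Stfa1* (chr16:36276951-36285373, plus strand) was at 226, 195, 178 and 196 CPM with vehicle and at 110.4, 82.9, 82.8 and 90.1 CPM at 10 µM. The fitted level with vehicle was 2.17-fold that at 10 µM, with the groups well apart (log2 fold change -1.12, standard error 0.10, adjusted p = 0.00304). *BC100530* (chr16:36359382-36367748, minus strand) was at 405, 445, 364 and 371 CPM with vehicle and at 230.4, 171, 199 and 209 CPM at 10 µM (log2 fold change -0.97, standard error 0.09, adjusted p = 0.00304). *Stfa2* (chr16:36403992-36408457, minus strand) was at 203, 224, 167 and 152 CPM with vehicle and at 111, 81.6, 99.8 and 102 CPM at 10 µM (log2 fold change -0.92, standard error 0.13, adjusted p = 0.0145). All of these encode inhibitors of cysteine proteases, and replicate 2 was the lowest or nearly the lowest of the treated libraries in each.

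*Stfa3* (chr16:36450537-36455392, minus strand) was at 111, 107, 86.3 and 86.6 CPM with vehicle and at 59.3, 44.4, 54.6 and 54.5 CPM at 10 µM (log2 fold change -0.88, standard error 0.11, adjusted p = 0.0102). *Stfa2l1* (chr16:36156811-36161953, plus strand) was at 164, 179.7, 157 and 162 CPM with vehicle and at 121, 96.98, 107 and 99.8 CPM at 10 µM (log2 fold change -0.64, standard error 0.08, adjusted p = 0.0102). *Gm5483* (chr16:36184212-36188111, plus strand), a predicted member, was at 552, 544, 512 and 573 CPM with vehicle and at 423, 391, 425 and 378 CPM at 10 µM (log2 fold change -0.43, standard error 0.06, adjusted p = 0.0172). The low-level members *BC117090* (-0.86, adjusted p = 0.293) and *Gm5416* (-0.55, adjusted p = 0.416) were not called. Because these genes are so alike, reads can be assigned to the wrong member. The summed level of the 8 tested members does not depend on swaps among them. It would still change with reads lost in counting or assigned to other genes. This sum was 1477 to 1709 CPM with vehicle and 876 to 1064 CPM at 10 µM, with a mean ratio of 0.601; its separation follows from that of the called members, so no test is given. Among relatives outside the cluster, *Cstb* (0.23, adjusted p = 0.655) and *Cst3* (0.07, adjusted p = 0.912) were not called. Of 11 tested stefins and cystatins, 6 fell and 5 were not called, and 9 had negative values and 2 positive ones.

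The start regions of the stefin genes are also alike. The lines give, 5′ to 3′ on each gene's own strand, the bases from 70 before to 50 after the RefSeq start (GRCm38.p6), which can differ from the GENCODE bounds above, of *Stfa1* (chr16:36277078-36277197, plus), *Stfa2* (chr16:36408314-36408433, minus), *Stfa2l1* (chr16:36156741-36156860, plus) and *Stfa3* (chr16:36455343-36455462, minus), the members whose fall is described here and whose promoter was at hand, with runs of at least 12 bases that all 4 share in capitals:
Stfa1: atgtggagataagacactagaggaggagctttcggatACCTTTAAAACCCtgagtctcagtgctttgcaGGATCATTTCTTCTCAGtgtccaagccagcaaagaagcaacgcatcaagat
Stfa2: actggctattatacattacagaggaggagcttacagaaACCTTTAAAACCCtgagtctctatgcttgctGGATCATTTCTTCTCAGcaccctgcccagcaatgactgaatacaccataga
Stfa2l1: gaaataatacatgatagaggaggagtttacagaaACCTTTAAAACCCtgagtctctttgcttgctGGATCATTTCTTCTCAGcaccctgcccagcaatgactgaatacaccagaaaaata
Stfa3: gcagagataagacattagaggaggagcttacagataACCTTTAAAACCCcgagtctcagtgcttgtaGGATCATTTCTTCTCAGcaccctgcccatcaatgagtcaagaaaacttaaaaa
There were 2 such runs, of 13 and 17 bases. Over the whole 300-base promoters, *Stfa2* and *Stfa2l1* were the closest pair, with 90.5% of aligned bases identical, and the other pairs lay between 79.1% and 81.0%.

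**Figure D4:**
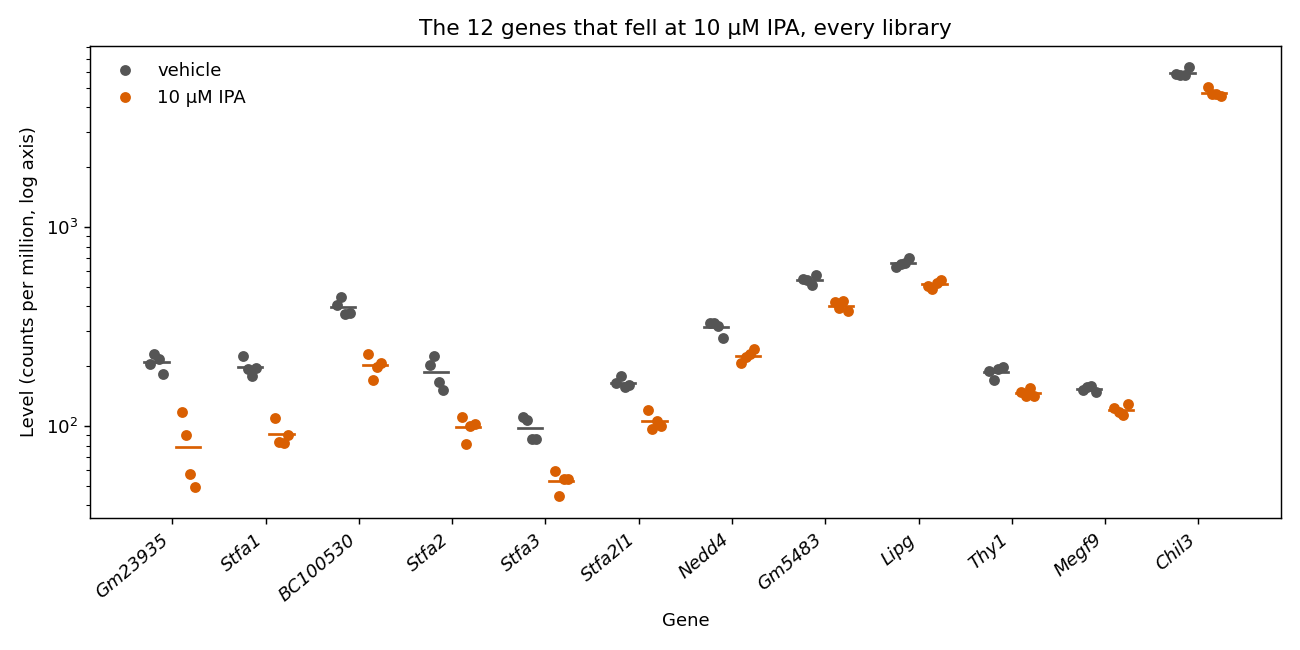
Level in CPM (log axis) of the 12 genes that fell; points are the 4 vehicle libraries and the 4 libraries at 10 µM IPA, and bars are group means. The groups are apart for every gene. By the fold of the group means the fall is largest for *Gm23935* and *Stfa1* and smallest for *Chil3*, *Megf9*, *Thy1* and *Lipg*. Levels are not divided by gene length.

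*Gm23935* had the lowest log2 fold change of the 12. It is annotated as a miRNA gene of 57 bases (chr16:11144125-11144181, plus strand, GRCm38) and lies opposite *Zc3h7a*. Its level was 205, 230.1, 217 and 184 CPM with vehicle and 118, 90.2, 57.5 and 49.5 CPM at 10 µM, where replicates 3 and 4 were far below replicate 1 (log2 fold change -1.41, standard error 0.22, adjusted p = 0.0263). The annotation (GENCODE M21) gives *Gm24270* (chr9:56223715-56223771, minus strand) the same transcript sequence, and *Gm24187* (chr13:9834469-9834525, minus strand) differs by the substitution G11A, counted from 1 at the 5′ end and in capitals:
Gm23935: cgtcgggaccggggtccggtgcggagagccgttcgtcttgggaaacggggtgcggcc
Gm24187: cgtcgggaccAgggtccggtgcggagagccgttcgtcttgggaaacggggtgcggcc
*Gm24270* was at 21.9, 22.1, 25.99 and 21.03 CPM with vehicle and at 15.4, 15.7, 10.7 and 7.88 CPM at 10 µM, separated in the same direction without a call (log2 fold change -0.87, adjusted p = 0.0847). Reads of the identical copies cannot be told apart by sequence, and the value of *Gm23935* is uncertain for that reason. Its call was kept in 3 of the 8 fits with 1 library left out.

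The other falls were small and uniform. *Nedd4*, a ubiquitin ligase, was at 329.9, 331, 319 and 279 CPM with vehicle and at 209, 223, 231 and 243 CPM at 10 µM (log2 fold change -0.47, standard error 0.07, adjusted p = 0.0244). *Lipg*, endothelial lipase, was at 634, 649.8, 663 and 699 CPM with vehicle and at 509, 492, 525 and 540.1 CPM at 10 µM (log2 fold change -0.36, standard error 0.06, adjusted p = 0.0279). In both genes the treated libraries formed a tight group below the vehicle libraries. *Thy1*, a surface glycoprotein, was at 189, 170.4, 194 and 199 CPM with vehicle and at 148, 142, 155 and 143 CPM at 10 µM (log2 fold change -0.35, standard error 0.07, adjusted p = 0.0473). *Megf9*, a membrane protein with EGF-like domains, was at 153, 157, 159 and 149 CPM with vehicle and at 124, 118, 115 and 129 CPM at 10 µM (log2 fold change -0.35, standard error 0.06, adjusted p = 0.0375). Of these 4 genes, *Nedd4* and *Thy1* kept their calls in 2 of the 8 fits with 1 library left out, and *Lipg* and *Megf9* in 1.

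Granule genes of neutrophils tended to lower values. In the list of secondary and tertiary granules *Chil3* fell, and 19 of 20 members were not called (median -0.14). DESeq2 called 4 of the 20. *Lcn2* (-0.34, adjusted p = 0.114), *Cd177* (-0.27, adjusted p = 0.238) and *Cybb* (-0.15, adjusted p = 0.353) separated downward without a call, and *Mmp8* (0.25, adjusted p = 0.244) and *Adam8* upward. *Ltf*, lactoferrin, and *Ngp* stood at -0.22 and -0.32. Of 11 primary granule genes none was called by edgeR's test (4 with an unadjusted p under 0.05, 2 called by DESeq2), 9 had negative values (median -0.22), *Ms4a3* (-0.38, adjusted p = 0.213) and *Serpinb1a* (-0.24, adjusted p = 0.358) separated downward, and *Lyz2* (0.28, adjusted p = 0.148) separated upward. The myeloperoxidase gene *Mpo* and the protease gene *Prtn3* stood at -0.24 and -0.22. Of 19 genes of mature neutrophils, 7 had positive values and 12 negative ones, the median was -0.04, and *Stfa2l1* was the 1 called gene and the 1 separated one. The abundant members *S100a8* (-0.24) and *S100a9* (-0.16) were not called.

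Myeloid progenitor genes had lower values without a call by edgeR's test (7 with an unadjusted p under 0.05, 5 called by DESeq2). Of 22 tested, 6 separated the groups downward and none upward, and 17 had negative values (median -0.23). The 6 were the stem cell marker gene *Prom1* (-0.39, adjusted p = 0.0979), the granulocyte factors *Gfi1* (-0.43, adjusted p = 0.108) and *Cebpe* (-0.30, adjusted p = 0.150), *Spn* (-0.23, adjusted p = 0.124), *Ctla2a* (-0.70, adjusted p = 0.229) and *Ms4a3*. Genes of the cell cycle had small negative values. In these lists, 29 of 30 mitosis genes were negative with a median of -0.11 and 30 of 38 replication genes with a median of -0.08. Of the mitosis and replication genes, 3 and 2 separated downward, beside 2.56% of all genes tested. EdgeR's test called none in either list, DESeq2 called 0, and 2 and 4 genes had an unadjusted p under 0.05. Among 48 histone and DNA modifying enzymes, 39 were negative (median -0.07), and *Hdac1* (-0.17, adjusted p = 0.353), *Hdac2* (-0.12, adjusted p = 0.641) and *Suv39h1* (-0.14, adjusted p = 0.572) separated downward without a call by edgeR's test (2 with an unadjusted p under 0.05, 0 called by DESeq2). For Ly6C-high monocytes, *Fn1* was the called gene of 17, *Ly6c2* itself stood at -0.12, adjusted p = 0.857, and the median was 0.02.

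Interferon-stimulated genes had mostly positive values without a call by edgeR's test (13 with an unadjusted p under 0.05, 4 called by DESeq2). Of 37 tested, 31 had positive values, 6 separated the groups upward and none downward, and the median log2 fold change was 0.19. *Isg15*, a ubiquitin-like modifier, had 4.50 to 5.84 CPM with vehicle and 6.10 to 8.73 CPM at 10 µM (log2 fold change 0.39, adjusted p = 0.455), and *Epsti1* came closest to the threshold (0.40, adjusted p = 0.0712). Genes of inflammatory cytokines and the inflammasome did not separate the groups in any of 25 cases (median -0.05), with *Il1b* at -0.16. Glycolysis and hypoxia genes had 26 positive values among 29 (median 0.18) but no separated member. Sterol synthesis (21 genes, median -0.04), MHC class II (11 genes, median 0.06) and cytosolic ribosomal proteins (82 genes, median 0.04) held no call by edgeR's test and no separated member either. Over the lists of inflammatory, glycolysis, sterol, MHC class II and ribosomal genes, 5, 5, 0, 1 and 1 members had an unadjusted p under 0.05, and DESeq2 called 1 inflammatory gene and 0 in the others.

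Responses that some indole compounds are known to drive were looked for directly. Several indole compounds bind the aryl hydrocarbon receptor, whose standard target is *Cyp1a1*. *Cyp1a1* had 0 to 5 raw counts over the 8 libraries, too few to show a difference. Of 14 tested genes of the receptor and its targets none was called by edgeR's test (2 with an unadjusted p under 0.05, 1 called by DESeq2), and *Serpinb2*, an inhibitor of plasminogen activators, separated upward (0.33, adjusted p = 0.0554). Among 13 genes of tryptophan metabolism and metabolite receptors, *Gpr35*, a receptor for tryptophan-derived metabolites, separated upward (0.37, adjusted p = 0.0758) without a call in the list by edgeR's test (3 with an unadjusted p under 0.05, 1 called by DESeq2). In the amino acid response list (26 genes, median -0.01) and the unfolded protein response list (20 genes, median 0.00) no gene was called by edgeR's test or by DESeq2, and 3 and 1 had an unadjusted p under 0.05. In none of the lists without a call by edgeR's test did limma-voom call a gene.

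Genes that the study names for this experiment were chosen on these samples, so their directions are not independent evidence. Among them, by edgeR's test, *Flrt2*, *Spp1*, *Atp6v0d2* and *Dusp3* rose and *Chil3* fell. *Epsti1*, *Ecm1* and *Cd68* separated upward and *Pak1* (-0.23, adjusted p = 0.185), *Lcn2*, *Ms4a3* and *Klf5* (-0.42, adjusted p = 0.0975) downward without a call by edgeR's test. DESeq2 called *Epsti1*, *Ecm1*, *Pak1*, *Lcn2*, *Ms4a3* and *Klf5* too, with adjusted p values of 0.00208, 0.0196, 0.0281, 0.00733, 0.0407 and 0.00820, and not *Cd68*. The same limit holds for transcription factors whose regulons the study names. Of these *Klf4* (0.30, adjusted p = 0.125), *Mitf* (0.23, adjusted p = 0.319), *Rbpj* (0.22, adjusted p = 0.165), *Elk3* (0.15, adjusted p = 0.524) and *Irf8* (0.11, adjusted p = 0.668) had higher values in all 4 libraries without a call. *Elf4* (-0.12, adjusted p = 0.552), *Maz* (-0.14, adjusted p = 0.459) and *Fos* (-0.21, adjusted p = 0.301) had lower values in all 4. DESeq2 called *Klf4* (adjusted p = 0.0202) and *Rbpj* (adjusted p = 0.0124) among these.

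Markers of other cell types were summed in each library, and their part in the results above was not tested. B cell markers had positive values in 14 of 15 genes, and their summed level was 84.3 to 99.3 CPM with vehicle and 104 to 133 CPM at 10 µM (exact permutation test, two-sided, p = 0.0286). *Igkc* (0.59, adjusted p = 0.287), *Cd22* (0.45, adjusted p = 0.254) and *Cd79b* (0.31, adjusted p = 0.594) were among the most abundant, and none of the list was called by edgeR's test (4 with an unadjusted p under 0.05, 0 called by DESeq2). Of 11 eosinophil markers 10 were negative, and the sum was 1196 to 1454 CPM with vehicle and 1015 to 1264 CPM at 10 µM (exact permutation p = 0.0571). The sum of 11 mast cell and basophil markers was 448 to 535 CPM with vehicle and 366 to 486 CPM at 10 µM (exact permutation p = 0.171), and that of 11 T and NK cell markers was 11.8 to 28.6 CPM with vehicle and 17.4 to 24.2 CPM at 10 µM (exact permutation p = 0.914). The 3 tested erythroid markers summed to 6.32 to 7.67 CPM with vehicle and 4.84 to 5.64 CPM at 10 µM (exact permutation p = 0.0286), most of it from *Gata1*, which eosinophils and mast cells also use. The sum of 6 endothelial markers was 60.1 to 77.9 CPM with vehicle and 75.8 to 90.2 CPM at 10 µM (exact permutation p = 0.0571), most of it from *Pecam1*, which myeloid cells also carry. The sums of 9 megakaryocyte markers and 5 stromal markers overlapped between the groups (exact permutation p = 0.600 and 0.486). These tests were among 13 measures per library and carry no adjustment.

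Of the called genes, 34 of the 49 that rose and 7 of the 12 that fell had a promoter of 300 bases in the RefSeq table, as did 10317 of all genes tested. The STAT6-type motif (TTC and GAA with 4 bases between them), whose letters read the same on both strands, was found in 7 of the 34 promoters, namely those of *Retnla*, *Il33*, *Cd36*, *Acp5*, *Dhrs3*, *Serpinb6a* and *Zranb3*, and in that of *Stfa2* among the falls. Of all 10317 genes, 6.71% had a match. The related STAT motif, with 3 bases between TTC and GAA, was found in 3 of the 34 and in *Chil3* and *Nedd4* (8.35% of all genes), and the AP-1 motif TGANTCA in 6 of the 34 and in *Nedd4* and *Stfa3* (6.50%). The MITF and TFE-type motif TCACGTG (6.81%), the RBPJ-type motif GTGGGAA (7.30%) and the IRF-type motif of a GAAA repeat with 2 bases between (4.01%), each searched on both strands, were found in 2, 2 and 4 of the 34. A match describes the letters of the window and was not tested against the calls.

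The levels at 50 µM IPA can be set beside these values, where both doses share the same 4 vehicle libraries. *Retnla* was at 55.1, 73.7, 71.7 and 60.7 CPM at 50 µM, above every library at 10 µM, and *Ccl24* at 16.5, 19.2, 10.6 and 5.92 CPM. *Fn1* was at 1897, 1832, 1331 and 1725 CPM, which overlapped with vehicle. *Stfa1* was at 69.5, 46.6, 57.5 and 67.99 CPM, below every library with vehicle.

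Some genes had opposite directions at the 2 doses relative to vehicle. *Mrc1* was at 112, 88.1, 80.6 and 95.3 CPM at 50 µM, below every vehicle library (log2 fold change -0.69, adjusted p = 0.00232), whereas it rose at 10 µM. *Sdc1* was at 35.6, 27.2, 20.3 and 27.4 CPM at 50 µM (-0.60, adjusted p = 0.00948). *Pls3* also had a higher level at 10 µM and a lower one at 50 µM (-0.48, adjusted p = 0.0172). *Thy1* showed the reverse order, with 275, 288, 359 and 355 CPM at 50 µM, above every vehicle library (0.77, adjusted p = 0.000216), and a fall at 10 µM. *F3*, *Hmox1* and *Pcdh7*, which rose at 10 µM, had log2 fold changes of -0.08, -0.00 and -0.09 at 50 µM.

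**Figure D5:**
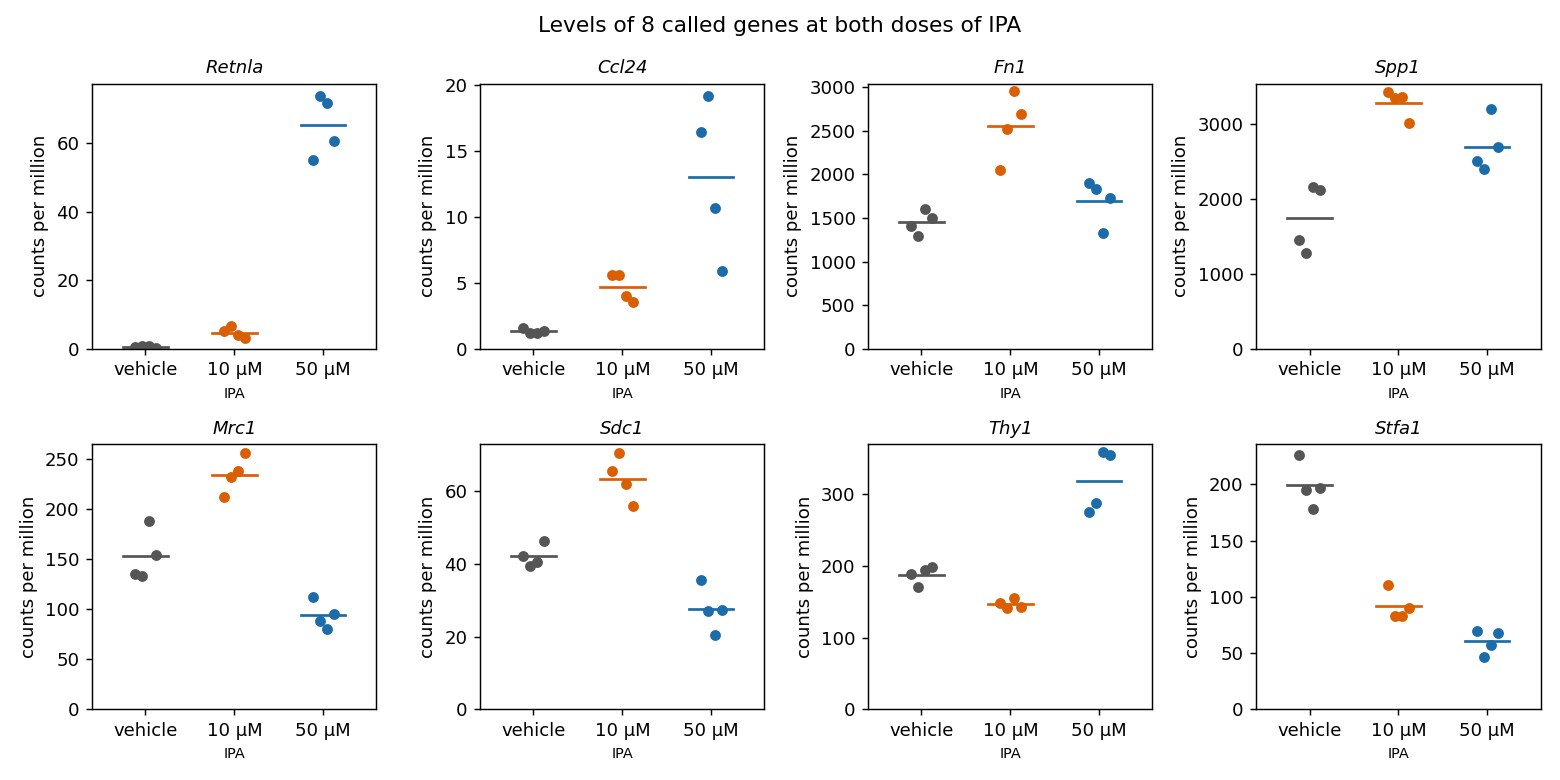
Level in CPM of 8 called genes in the 4 libraries with vehicle, the 4 at 10 µM IPA and the 4 at 50 µM IPA; bars are group means and each panel has its own axis from 0. *Fn1*, *Spp1*, *Mrc1* and *Sdc1* have their highest group mean at 10 µM, *Retnla*, *Ccl24* and *Thy1* at 50 µM, and *Stfa1* with vehicle.

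Just above the threshold, 76 genes had an adjusted p between 0.05 and 0.1, 62 of them higher and 14 lower, and all separated the groups. Those with the largest log2 fold changes were low-level genes: *Rnase2a*, an eosinophil-type ribonuclease, had 0 to 88 raw counts over the 8 libraries (2.81, adjusted p = 0.0985), and *Klrb1a*, an NK receptor gene, had 8 to 63 (1.75, adjusted p = 0.0878). Genes of growth factors and their receptors were among them, with *Igf1* (adjusted p = 0.0758), *Pdgfa* (0.57, adjusted p = 0.0758) and the BMP receptor gene *Acvrl1* (0.73, adjusted p = 0.0878), and *Jag1*, a Notch ligand, had 0.48, adjusted p = 0.0874. On the lower side were *Klf5*, *Prom1*, the chromatin proteins *Hmgn2* (-0.27, adjusted p = 0.0994) and *Lbr* (-0.28, adjusted p = 0.0878) and the condensin gene *Ncapg2* (-0.27, adjusted p = 0.0975). None of these genes was called by edgeR's test, but 75 of the 76 were called by DESeq2, the exception being *Rnase2a*, and 5 by limma-voom.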

How the data were processed

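RNA-seq of mouse bone marrow cells was compared between 4 libraries with 10 µM IPA and 4 with vehicle. The values are raw read counts per Ensembl gene as deposited by the authors. Per the study's methods, RNA went into a stranded mRNA kit, reads were trimmed, and mm10 was the genome. Tools in the submitters' processing notes are HISAT2 2.2.1, featureCounts 2.0.1, R 4.3.0 and DESeq2 1.40.2. The strand setting of the counting is not given in the sources used here. The counts were neither normalized nor filtered. Replicate 3 at 10 µM carries the title of replicate 2 and was identified by its library name.

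A gene was tested if it exceeded 0.5 CPM in 2 or more libraries of the series (14894 of 54532). The groups were compared with edgeR 4.0.16 (glmQLFit, glmQLFTest and TMM factors; R 4.3.3), on the 8 libraries and without a block, with Benjamini-Hochberg adjustment over all genes and a threshold of 0.05. The study used DESeq2, which was an alternative here (1.42.0), beside limma-voom (limma 3.58.1), DESeq2's size factors, other filters, one fit over the 12 libraries, a replicate block and leaving out each library. A covariate for the slope of counts on exon length was added after the data had been seen. Levels are CPM, TMM-normalized over the 12 libraries. Measures per library were compared by exact permutation tests (SciPy 1.17.1). The scripts were tested on simulated counts. A chi-square comparison of counts found no duplicated library.

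The 63 gene lists were written from general knowledge and from the study's text, and the comparison, lists and named genes were chosen with earlier results of these data known. Lists are described by counts and medians, without a test. Every called gene could be named. The 12 largest rises and all falls with a mean of at least 1 CPM are given in every library, and a few results are not reported here. Of each list, called members, members whose groups do not overlap and the 4 most abundant could be named, as could genes the study names and genes with an adjusted p between 0.05 and 0.1. *Il4*, *Il13*, *Cyp1a1* and the lineage genes given as raw counts were named after their values had been seen. Genes given as separated are those whose 4 libraries of one group all lay above or below the other 4. The shares over all genes tested, 3.57% above and 2.56% below, are the background for every list. Gene positions follow GENCODE M21 (GRCm38), promoters those of RefSeq on GRCm38.p6, and pairwise identity came from global alignment (Biopython 1.88). Precision is limited by 4 libraries per group.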

Additional observations from a re-analysis of the deposited data

Results flagged for a closer look

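Among 160 sets of 4 libraries checked, 7 held a library far from the other 3, by the gap to the nearest library relative to the range, and chance gives about 1 in 20. The vehicle group's replicate 3 had the fewest reads, 22417710 against 25762235 to 26442653 in the others. *Zranb3*, the repair helicase gene, was at 21.3 CPM in the same library and at 14.5 to 15.6 CPM in the other vehicle libraries. *Klf4*, a macrophage lineage factor, was at 31.3 CPM in replicate 4 of the vehicle group and at 36.4 to 36.7 CPM in the others. *Ecm1*, a matrix protein gene, was at 39.4 CPM in replicate 2 of the vehicle group and at 45.7 to 46.2 CPM in the others. At 10 µM, *Cd300ld* was at 63.3 CPM in replicate 1 and at 68.0 to 68.9 CPM in the others. *Kcnn4*, the potassium channel gene, was at 87.7 CPM in replicate 4 and at 101.6 to 103.9 CPM in the others. *Pak1*, a kinase gene, was at 73.7 CPM in replicate 3 and at 69.4 to 69.9 CPM in the others. The called genes *Zranb3*, *Cd300ld* and *Kcnn4* kept non-overlapping groups with these libraries included.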

How the results depend on the processing

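The count of 61 called genes (49 higher, 12 lower) was 63 with limma-voom, 60 with DESeq2's size factors, 68 with at least 10 counts in every library and 61 with the filter on the 8 libraries. It was 250 (197 and 53) with DESeq2, 150 (129 and 21) without a filter, 118 (102 and 16) with all 12 libraries in the fit, and 374 (272 and 102) with each library's length slope as covariate, which was added with the results in view. Of the 61 genes, 61, 61, 57 and 61 were called in these 4 settings. The covariate fit was run because the slopes differed within both groups. The cause of these differences was not tested, except that the unfiltered fit adds genes. With 1 library left out, the count lay between 4, when replicate 2 at 10 µM was dropped, and 122, when replicate 4 with vehicle was dropped, with 2 to 101 higher and 2 to 21 lower. With a block for replicate numbers it was 3 (2 and 1). Whether libraries of the same number are paired is not stated. The study used a repeated-measures test for Ly6C-high monocytes in such cultures. The correlations of deviations between libraries of the same number were -0.23, -0.35, 0.092 and -0.60. Libraries of different numbers also gave strong values. Replicate 1 at 10 µM had -0.57 with vehicle replicate 2 and 0.59 with vehicle replicate 4. These correlations therefore cannot decide whether the libraries are paired.

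For the 76 genes followed through the alternatives, the direction was the same under every alternative; 902 of their values stayed on their side of the threshold, 370 lost the call and 19 gained it. Of 1071 list medians, 34 moved by more than the spread between libraries. Depth limits *Retnla*, *Ccl24*, *Il33* and *Vsig8*, at 8 to 41 reads per vehicle library, and *Cyp1a1*, which it leaves undecided.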

Other observations

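Further lists add detail to the difference between 10 µM IPA and vehicle. Over all genes tested, 3.57% separated upward and 2.56% downward. Among 27 markers of immunosuppressive myeloid cells, 8 members separated the groups upward and 4 downward, and the median log2 fold change was 0.11. The 4 were subunit genes of the NADPH oxidase, *Cybb* (-0.15, adjusted p = 0.353), *Ncf1* (-0.15, adjusted p = 0.408) and *Ncf4* (-0.10, adjusted p = 0.688), and the adhesion gene *Jaml* (-0.14, adjusted p = 0.521). *Cebpb*, a factor of emergency myelopoiesis, separated upward (0.18, adjusted p = 0.370), as did the receptor gene *Cd84* (0.26, adjusted p = 0.148). Of 36 lineage factors, 8 separated upward and 3 downward. The stress factor *Atf3* (0.56, adjusted p = 0.0712) was among those that separated upward, and *Spi1* stood at -0.04. In the list of costimulation and checkpoint genes, *Tnfsf4* rose, and *Cd200r1* (0.21, adjusted p = 0.251), *Cd200r4* (0.40, adjusted p = 0.0554) and *Lair1* (0.24, adjusted p = 0.385), inhibitory or paired receptors of myeloid cells, separated upward without a call. In the dendritic cell list, *Batf3* separated upward (0.65, adjusted p = 0.0550), and edgeR's test called none of 21 members (4 with an unadjusted p under 0.05, 2 called by DESeq2).

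Iron handling was uneven. *Hmox1* rose, the ferroxidase gene *Cp* (0.59, adjusted p = 0.265) and the transporter gene *Slc11a1* (0.15, adjusted p = 0.513) separated upward, and the transferrin receptor gene *Tfrc* (-0.15, adjusted p = 0.508), the exporter gene *Slc40a1* (-0.22, adjusted p = 0.397) and *Lcn2* separated downward. Enzymes of lipid mediators held no call by edgeR's test (4 with an unadjusted p under 0.05, 1 called by DESeq2): *Hpgds*, prostaglandin D synthase (0.48, adjusted p = 0.356), and *Pla2g7* (0.33, adjusted p = 0.0938) separated upward and *Lta4h*, leukotriene A4 hydrolase (-0.21, adjusted p = 0.343), downward. Receptors and feedback genes of the culture cytokines held no separated member and no call by edgeR's test (1 with an unadjusted p under 0.05, 1 called by DESeq2), and the shared receptor chain gene *Csf2rb* stood at 0.02.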
